A study of Homo sapiens with 6 samples.

Results

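Cell surface mucins are glycoproteins anchored in the cell membrane by a single transmembrane stretch. The 10 genes described here are MUC1, MUC3A, MUC4, MUC12, MUC13, MUC15, MUC16, MUC17, MUC20 and EMCN, chosen by symbol out of 24462 gene symbols in the count tables. They were measured by RNA sequencing in LS 174T, a line grown from a human colorectal adenocarcinoma and used as a model of the intestinal goblet cell. The control group was untreated (n = 3 libraries), and the propionate group was exposed for 4 h to 4 mM propionate, which gut bacteria make when they ferment fibre (n = 3 libraries). Both groups were at passage 21 to 23 and grew in RPMI 1640 with 10% fetal bovine serum. The libraries came from a single tumour line, and the labels do not say whether those of a group were separate cultures, so p-values measure the spread between libraries, which may be technical.

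The long extracellular part of a surface mucin is rich in serine and threonine, carries dense O-linked sugar chains and forms the glycocalyx over the brush border. In many members it is cleaved during folding and held together at a juxtamembrane domain, so that it can be shed while a short cytoplasmic tail stays behind and binds signalling and scaffold proteins. The gel-forming mucins, which goblet cells secrete, are a separate family without a membrane anchor. In the colon, the surface mucins sit mainly on enterocytes, and goblet cells carry some of them as well.

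Depth was similar in all libraries, at 11603288 to 12746170 reads, and 3 reads, the limit that a count of 0 allows, equalled 0.235 to 0.259 CPM (counts per 1000000 reads of a library). All 9 listed genes of colon epithelium had reads, and 8 of 9 listed goblet cell genes did, with ATOH1, the factor that sets the secretory lineage, at 0 in every library. The lists of other cell types had lower summed levels than these lists, although the leukocyte genes LYZ and CD68 averaged 18.5 and 12.5 CPM in control. The endothelial list, in which 4 of 6 genes had no read (VWF, CDH5, KDR and CLDN5), summed to 0.167 to 0.349 CPM in control and 0.0775 to 0.254 CPM with propionate. The fibroblast list, with DCN at 0, summed to 3.58 to 6.99 CPM in control and 6.17 to 7.98 CPM with propionate. Within it COL1A1 went from 31 to 137 reads (4.13-fold higher, edgeR adjusted p = 0.000219), and COL3A1, which was not tested, from 37 to 18 reads. The filter on low counts asked for 0.842 CPM in 3 libraries. COL1A1 was at 0.666 CPM in control library 3, so the control libraries alone would not have kept it. The leukocyte list, with CD3E at 0 in all libraries and PTPRC at 0 in control, summed to 29.1 to 34.0 CPM in control and 21.5 to 24.3 CPM with propionate. Within it LYZ was called lower, from 652 to 404 reads (edgeR adjusted p = 0.00222). The part of these genes in the results below was not tested.

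All 10 genes had a row, and 7 had reads, all 7 of which passed the filter on low counts. MUC1 was higher with propionate and none of the 7 was lower (adjusted p under 0.05 by edgeR's quasi-likelihood F test, corrected after Benjamini and Hochberg over 13605 genes). Over all genes tested, 17.2% were called higher and 17.0% lower (34.2% in either direction), so 1 of 7 is close to the share among all genes. At an unadjusted p under 0.05, edgeR also gave 1 member higher and 0 lower, and DESeq2 and limma-voom each called 1 higher and 0 lower. The median log2 fold change of the 7 was 0.18, and that of all genes tested was -0.0069. MUC15, MUC16 and EMCN had 0 reads in all 6 libraries.

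**Figure D1:**
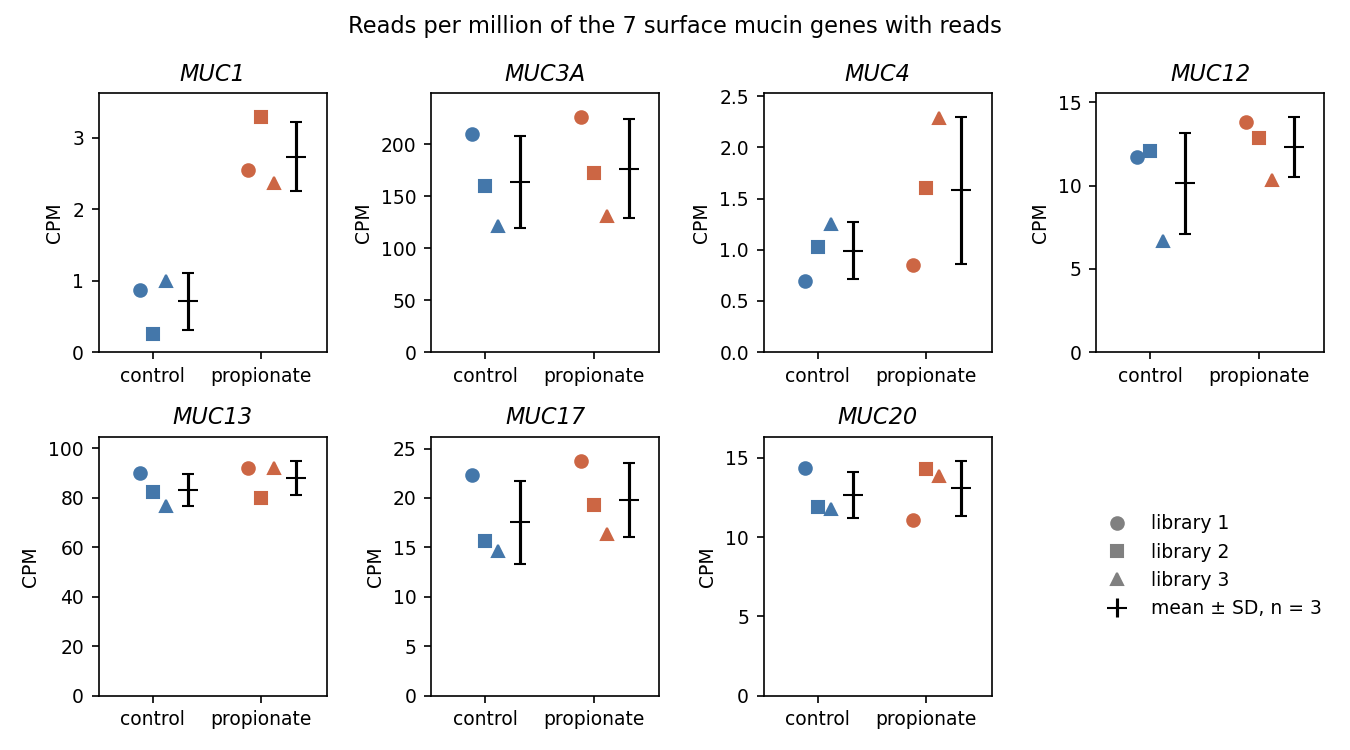
Counts per 1000000 reads (CPM, vertical axes from 0) of the 7 surface mucin genes with reads, for each control and propionate library, with the mean ± SD of each group (n = 3). The MUC1 libraries of the groups do not overlap, at 0.256 to 0.999 CPM in control and 2.37 to 3.29 CPM with propionate, while those of the other 6 genes overlap.

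MUC1 encodes the best-studied surface mucin, found on most glandular epithelia, whose cytoplasmic tail is a docking site for kinases and catenins. It was the member that passed the test, from a level near the detection limit. The filter on low counts asked for 0.842 CPM, before TMM scaling, in 3 libraries, which MUC1 and MUC4 reached in all 3 propionate libraries and in 2 of 3 controls, so that the control libraries alone would not have kept either. Its read numbers were 10, 3 and 12 in control libraries 1, 2 and 3 and 33, 41 and 28 in propionate libraries 1, 2 and 3. On the CPM scale these are 0.874, 0.256 and 0.999 in control and 2.56, 3.29 and 2.37 with propionate. Every propionate library lay above every control, and control library 2 sat at the limit of 3 reads. A gap of this kind, with all propionate libraries above all controls, was found in 22.4% of the genes tested, and a gap in either direction in 45.2%. The mean rose from 0.710 ± 0.397 to 2.74 ± 0.488 CPM (SD, n = 3), which the fit put at 3.81-fold (log2 fold change 1.93, SE 0.434, 95% interval 2.04-fold to 7.15-fold, edgeR adjusted p = 0.00184). In summed reads the ratio was 3.90, with an exact binomial 95% interval of 2.50 to 6.30 that covers counting error only. In RNA from whole cultures, more transcript per cell and more cells with the transcript cannot be told apart.

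The MUC1 call held without each library in turn, with fitted folds from 2.90 without control library 2 to 4.79 without control library 3. MUC1 has a GC-rich transcript (71.2% G or C in the longest GENCODE 29 transcript), in the fifth of tested genes with the highest GC content, where 32.8% of genes were called higher and 9.21% lower. In the fifth with the lowest GC content, 8.03% were called higher and 23.1% lower. With each library's GC trend removed and the library number added to the fit as a block, the fold of MUC1 was 2.88 (log2 fold change 1.53, adjusted p = 0.00793).

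The sequence before the MUC1 start is shown because MUC1 is the member whose transcript changed. It is the 250 bases upstream of the annotated start, chr1:155192916-155193165 on the minus strand of GRCh38.p14, written 5′ to 3′ from RefSeq, with motif matches in capitals.
MUC1 promoter window: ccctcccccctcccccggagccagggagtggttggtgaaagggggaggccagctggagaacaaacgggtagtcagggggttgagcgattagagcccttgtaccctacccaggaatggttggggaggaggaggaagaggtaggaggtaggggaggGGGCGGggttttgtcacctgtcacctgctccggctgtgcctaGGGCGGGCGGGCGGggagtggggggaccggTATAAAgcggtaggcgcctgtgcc
The motifs searched on both strands were the GC box GGGCGG, which SP1 binds, the TATA box TATAAA, the E-box CACGTG, the hypoxia response cores ACGTG (contained in the E-box) and GCGTG, and the STAT site TTCNNNGAA. The MUC1 window held 4 GC boxes, of which 3 overlap in the run that ends 41 bases before the start, and 1 TATA box that begins 24 bases before it. Among 27305 such windows, 1 per gene, 42.3% held a GC box and 11.1% a TATA box. The window held none of the other motifs, which were found in 6.49% (CACGTG), 18.7% (ACGTG), 31.9% (GCGTG) and 6.78% (TTCNNNGAA) of windows. G or C made up 66.0% of it, a share reached by 29.5% of windows. A match describes letters only and does not show binding.

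**Figure D2:**
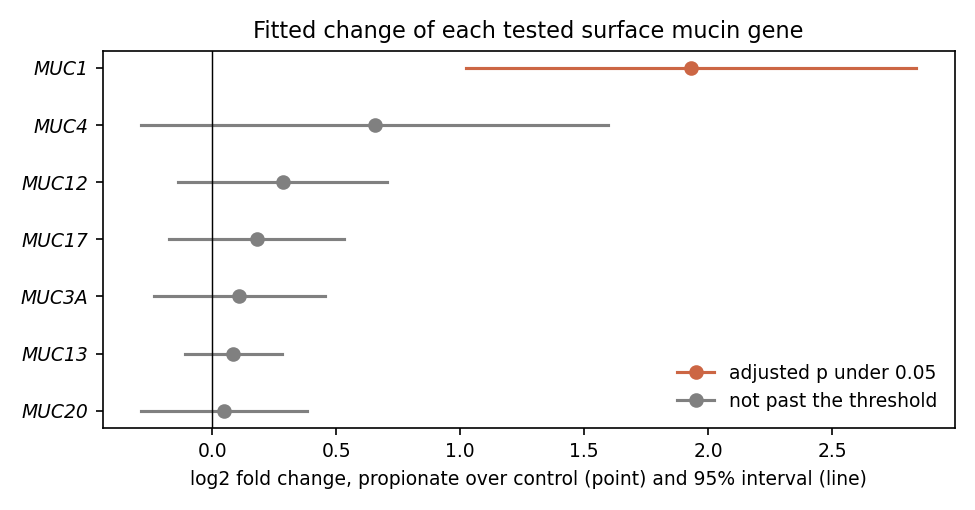
Fitted log2 fold change of propionate over control (points, horizontal axis) with its 95% interval (lines) for each of the 7 tested surface mucin genes. The interval of MUC1, from 1.03 to 2.84, lies above 0, and the other 6 intervals include 0.

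MUC4 encodes a very long surface mucin whose membrane subunit can bind the receptor ERBB2. Like MUC1 it had few reads, with 8, 12 and 15 in control and 11, 20 and 27 with propionate. The levels were 0.699, 1.03 and 1.25 CPM in control and 0.852, 1.61 and 2.28 CPM with propionate. The groups overlapped, since propionate library 1 lay below 2 of the controls. The fitted fold was 1.57 (log2 fold change 0.65, SE 0.450, edgeR adjusted p = 0.283), with a 95% interval of 0.820-fold to 3.02-fold that includes both a fall and a rise.

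MUC3A, MUC12 and MUC17 lie next to each other on chromosome 7, and encode the large mucins of the intestinal brush border, whose tails bind PDZ-domain scaffolds. MUC3A held 2402, 1870 and 1461 reads in control libraries 1, 2 and 3 and 2918, 2147 and 1548 with propionate. These are 209.8, 159.9 and 121.6 CPM in control and 226.1, 172.4 and 130.9 CPM with propionate. In both groups library 1 was the highest and library 3 the lowest, so that the groups overlapped almost completely. The group means of 163.8 ± 44.2 and 176.4 ± 47.8 CPM (SD, n = 3) gave a fold of 1.08 (95% interval 0.849 to 1.37, edgeR adjusted p = 0.653). Between libraries of the same number, propionate exceeded control by the ratios 1.08, 1.08 and 1.08 (log2 ratios 0.108, 0.109 and 0.105). The near-identical neighbouring copy MUC3B had no row of its own. Whether its reads were pooled with those of MUC3A or dropped by the counting cannot be told.

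MUC12 held 134, 141 and 80 control reads against 178, 160 and 122 under propionate. This came to 11.7, 12.1 and 6.66 CPM in control and 13.8, 12.8 and 10.3 CPM with propionate, with library 3 the lowest of each group. The fold was 1.22 (95% interval 0.910 to 1.63, edgeR adjusted p = 0.298). MUC17 held 256, 183 and 176 control reads against 307, 240 and 194 under propionate, or 22.4, 15.6 and 14.7 CPM and 23.8, 19.3 and 16.4 CPM. Its library 1 was the highest and its library 3 the lowest in each group, and the fold was 1.13 (95% interval 0.886 to 1.44, edgeR adjusted p = 0.447). For both genes, propionate was above control in all 3 pairs of same-numbered libraries, by ratios of 1.18, 1.07 and 1.55 for MUC12 and 1.06, 1.23 and 1.12 for MUC17. None of the 3 genes passed the test, with or without the replicate number as a block. Propionate was above control in all 3 pairs for MUC1 and MUC4 too, and in 2 of 3 for MUC13 and MUC20. The share of all tested genes with all 3 pairs in the same direction was not computed.

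**Figure D3:**
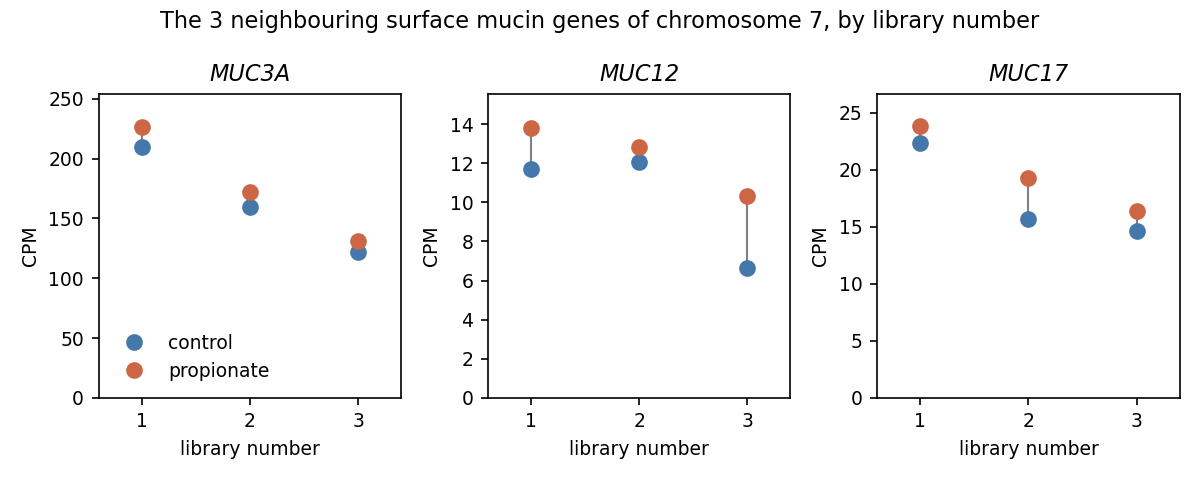
CPM (vertical axes from 0) of MUC3A, MUC12 and MUC17 in control and propionate libraries, by library number, with a line joining the libraries of the same number. For MUC3A the distance between library 1 and library 3, 209.8 against 121.6 CPM in control, is far wider than that between the joined points, such as 121.6 and 130.9 CPM.

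The windows before the starts of MUC3A and MUC13 are shown beside that of MUC1 because these 2 genes held 83.1% to 85.9% of the reads of the 10 genes in each library and did not pass the test. They are chr7:100949284-100949533 on the plus strand and chr3:124934752-124935001 on the minus strand of GRCh38.p14, from RefSeq, with motif matches in capitals.
MUC3A promoter window: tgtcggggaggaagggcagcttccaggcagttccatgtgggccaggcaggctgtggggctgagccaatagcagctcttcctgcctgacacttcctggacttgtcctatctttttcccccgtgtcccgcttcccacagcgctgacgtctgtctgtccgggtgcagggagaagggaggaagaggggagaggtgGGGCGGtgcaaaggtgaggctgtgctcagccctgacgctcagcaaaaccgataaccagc
MUC13 promoter window: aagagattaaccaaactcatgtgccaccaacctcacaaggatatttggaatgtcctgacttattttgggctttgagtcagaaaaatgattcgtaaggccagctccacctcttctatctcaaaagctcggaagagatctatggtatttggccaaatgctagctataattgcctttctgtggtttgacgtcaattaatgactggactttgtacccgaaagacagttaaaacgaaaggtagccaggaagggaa
The MUC3A window held 1 GC box, 59 bases before the start, and G or C made up 61.6% of it. The MUC13 window held none of the 6 motifs and had 41.6% G or C, a share that 83.8% of windows reached or exceeded. The MUC4 window held 1 GC box, 1 GCGTG core and 1 STAT site, the MUC12 window 1 TATA box and 1 GCGTG core, and the MUC16 window 1 GC box. Those of MUC17 and EMCN held none of the 6 motifs. MUC15 and MUC20 have no entry in the promoter table used.

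MUC13, a shorter surface mucin of stomach and intestine with EGF-like domains, had the smallest relative spread between libraries. Its reads were 1029, 964 and 923 in control and 1190, 997 and 1089 with propionate. On the CPM scale the controls were at 89.9, 82.4 and 76.8 and the propionate libraries at 92.2, 80.0 and 92.1. The groups overlapped, and the means were 83.0 ± 6.55 and 88.1 ± 6.98 CPM (SD, n = 3). The fold was 1.06 (log2 fold change 0.086, SE 0.0928, edgeR adjusted p = 0.516). Its 95% interval, 0.927-fold to 1.21-fold, was the narrowest of the 7.

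MUC20 encodes a surface mucin that can associate with the receptor MET, and its gene lies beside MUC4 on chromosome 3. It had 164, 139 and 141 control reads against 143, 178 and 164 under propionate. The levels were 14.3, 11.9 and 11.7 CPM in control and 11.1, 14.3 and 13.9 CPM with propionate, and the lowest of the 6 libraries was a propionate library. The fold was 1.03 (95% interval 0.820 to 1.30, edgeR adjusted p = 0.850), and its direction was not stable between analyses. Near-identical partial copies of MUC20 lie in the same region, and the RNA gene LINC00969 overlaps it on the same strand in GENCODE 29, so its reads are uncertain. In the RefSeq order used for neighbours, LINC00969 instead lies 9102 bases before MUC20. LINC00969 was at 9.36 ± 1.75 and 11.5 ± 0.713 CPM (SD, n = 3, edgeR adjusted p = 0.195).

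MUC16 (the ovarian cancer antigen of the ocular surface and airway), MUC15 and EMCN had no read. EMCN encodes endomucin, a sialomucin of the endothelium, and the endothelial genes VWF, CDH5, KDR and CLDN5 also had no read. For each of these 3 members the limit is 0.235 to 0.259 CPM in each library, and no fold can be given.

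Genes next to the members, meaning the nearest with a row on each side, were compared to see which changed with them. HEG1 lay 30958 bases from MUC13, TNK2 51434 from MUC4, ACHE 52539 from MUC3A and TRIM56 26621 from MUC17. TRIM46, next to MUC1, had 5 reads in control and 7 with propionate, and THBS3 on the other side was at 2.11 ± 1.56 and 2.62 ± 0.239 CPM (SD, n = 3, edgeR adjusted p = 0.611). HEG1, next to MUC13, encodes a mucin-like membrane protein itself and rose from 8 reads (4, 4 and 0 in the controls) to 92 reads (25, 35 and 32 with propionate). The fitted fold was 10.5 (95% interval 4.60 to 23.8, edgeR adjusted p = 0.000126). The HEG1 controls, at 0.349, 0.342 and 0 CPM, all lay below the 0.842 CPM of the filter on low counts. HEG1 was therefore tested only because of its propionate libraries. ITGB5 on the other side of MUC13 was at 88.8 ± 4.84 and 82.2 ± 3.81 CPM (edgeR adjusted p = 0.356). TNK2, a tyrosine kinase gene next to MUC4, was 1.26-fold higher (217.5 ± 43.0 and 273.2 ± 26.1 CPM, edgeR adjusted p = 0.0318). That call was lost without control library 3, propionate library 1 or propionate library 2 (edgeR adjusted p = 0.187, 0.154 and 0.0665). It was also lost with the library number as a block and GC correction (edgeR adjusted p = 0.176). With the block alone it held (edgeR adjusted p = 3.16e-05). ACHE and TRIM56, at the ends of the MUC3A to MUC17 cluster, did not pass the test (edgeR adjusted p = 0.104 and 0.911). With the library number as a block, ACHE passed (53 reads in control and 104 with propionate, 1.90-fold higher, edgeR adjusted p = 0.0484). ACHE was at 0.769 CPM in control library 2, below the 0.842 CPM of the filter, so the control libraries alone would not have kept it.

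By Pearson correlation of log2 CPM over the 6 libraries, the genes most like MUC3A among 10790 were ARF5 (r = 0.991), TPM1 (r = 0.990) and C19orf33 (r = 0.983). ARF5 ran from 118.3 to 148.2 CPM in control and from 119.0 to 149.5 CPM with propionate, again with library 1 highest and library 3 lowest in each group. The genes most like MUC13 were INTS1 (r = 0.976), TMEM115 (r = 0.967) and CREB3L1 (r = 0.954). None of these 6 genes passed the test. With so few libraries, and so many genes searched, these correlations only describe the shared order of libraries.

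The secreted mucins MUC2 and MUC6 were called higher, out of 4 tested (50%, against 17.2% of all genes tested). MUC6, a gastric-type gel-forming mucin, was at 166.5, 173.3 and 137.9 CPM in control and 191.9, 206.2 and 175.5 CPM with propionate, with no overlap (1.20-fold, edgeR adjusted p = 0.0356), and MUC2 was 1.19-fold higher (edgeR adjusted p = 0.0396). Both calls were lost without control library 3, propionate library 1 or propionate library 2, and that of MUC2 also without control library 1 (adjusted p from 0.0817 to 0.194). With the library number as a block both passed (edgeR adjusted p = 0.00025 for MUC6 and 0.000295 for MUC2). With the block and GC correction neither passed (edgeR adjusted p = 0.978 for MUC6 and 0.833 for MUC2). The median log2 fold change of the list was 0.12, against -0.0069 over all genes tested. The gel-forming mucins MUC5AC and MUC5B did not pass (edgeR adjusted p = 0.988 and 0.713). Among other mucin-like surface glycoproteins 0 of 3 tested genes passed in edgeR. They were CD164 at 75.7 ± 10.0 and 68.3 ± 3.09 CPM, PODXL at 51.7 ± 10.5 and 45.7 ± 7.13 CPM, and SPN at 0.737 ± 0.429 and 0.943 ± 0.175 CPM, and their median log2 fold change was -0.15.

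Of 12 tested genes of sheddases, iRhom proteins and gamma-secretase, which cuts the stub left behind, 3 were higher (25.0%) and 2 lower (16.7%). Among all genes tested, the shares were 17.2% and 17.0%. The median log2 fold change of the list was 0.058. RHBDF2 and RHBDF1 encode the iRhom proteins, which bring the sheddase ADAM17 to the cell surface. RHBDF2 rose from 34.4 ± 4.84 to 66.0 ± 5.05 CPM (SD, n = 3, 1.92-fold, edgeR adjusted p = 2.99e-06). RHBDF1 rose 1.78-fold and the metalloprotease gene ADAM8 2.24-fold, both without overlap (edgeR adjusted p = 2.68e-05 and 2.62e-05). With the block and transcript GC correction, the folds of RHBDF2, RHBDF1 and ADAM8 were smaller, at 1.58, 1.46 and 1.82, and these calls held. The main mucin sheddase genes did not pass: ADAM17 was at 20.6 ± 3.42 and 20.04 ± 1.70 CPM and ADAM10 at 48.4 ± 5.94 and 45.0 ± 7.63 CPM (edgeR adjusted p = 0.845 and 0.549). NCSTN, which encodes a gamma-secretase subunit, was 1.40-fold lower (edgeR adjusted p = 0.0196). This call was lost without control library 3 or propionate library 2 (edgeR adjusted p = 0.127 and 0.117), and held with the library number as a block (edgeR adjusted p = 0.00108).

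**Figure D4:**
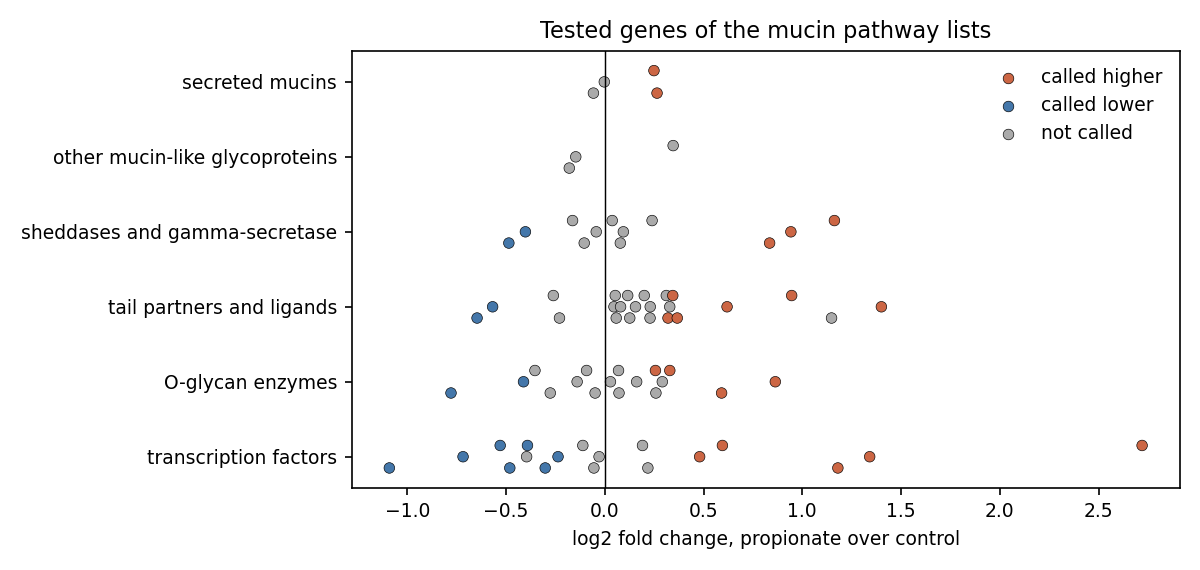
Fitted log2 fold change of propionate over control (horizontal axis) of each tested gene in 6 lists of the mucin pathway, 1 point per gene, with vertical offsets only for legibility. Called genes lie on both sides of 0 in 4 lists, the secreted mucins have 2 higher and 0 lower, and no gene of the other mucin-like glycoproteins passed.

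Of 23 tested partners of the cytoplasmic tails and extracellular ligands, 6 were higher (26.1%) and 2 lower (8.70%). The shares among all genes tested were 17.2% and 17.0%. The median log2 fold change of the list was 0.20. SLC9A3R2 and SLC9A3R1 encode the NHERF scaffolds, whose PDZ domains hold membrane proteins at the brush border. SLC9A3R2 went from 39.3 ± 3.21 to 75.8 ± 3.02 CPM (1.93-fold, edgeR adjusted p = 5.96e-07) and SLC9A3R1 from 120.0 ± 3.53 to 184.4 ± 10.5 CPM (1.54-fold, edgeR adjusted p = 9.45e-06). PRKCD, a kinase that phosphorylates the MUC1 tail, rose 2.64-fold, from 10.8 ± 2.27 to 28.5 ± 0.558 CPM (edgeR adjusted p = 8.44e-07). SOS1, an exchange factor recruited to receptors through GRB2, and the kinase gene GSK3B were 1.57-fold and 1.48-fold lower (edgeR adjusted p = 0.000269 and 0.00033). The catenin gene CTNNB1 and the galectin gene LGALS3, both products of which bind MUC1, did not pass (edgeR adjusted p = 0.771 and 0.783).

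Among 17 tested enzymes that start or branch O-linked chains, 4 were higher (23.5%) and 2 lower (11.8%), against 17.2% and 17.0% of all genes tested. Their median log2 fold change was 0.069. GALNT12, GALNT6 and GALNT4, which attach the first sugar, were 1.51-fold, 1.19-fold and 1.26-fold higher (edgeR adjusted p = 0.00827, 0.032 and 0.0327). ST6GALNAC1, whose product caps that sugar with sialic acid, was at 110.7, 151.8 and 179.2 CPM in control and 78.3, 91.9 and 87.2 CPM with propionate (1.72-fold lower, edgeR adjusted p = 9.09e-05). C1GALT1C1, the chaperone of the core synthase, was 1.33-fold lower (edgeR adjusted p = 0.0223). The calls of GALNT6, GALNT4 and C1GALT1C1 were each lost when any of 4 libraries was left out: control libraries 2 and 3 and propionate libraries 2 and 3 for GALNT6, control libraries 1 and 2 and propionate libraries 2 and 3 for GALNT4, and control libraries 2 and 3 and propionate libraries 1 and 3 for C1GALT1C1 (adjusted p from 0.0515 to 0.131). With all libraries and the library number as a block, these 3 calls held (edgeR adjusted p = 0.00295, 0.00821 and 0.00793).

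Of 18 tested transcription factors tied to surface mucin genes, 5 were higher (27.8%) and 7 lower (38.9%), against 17.2% and 17.0% of all genes tested. Their median log2 fold change was -0.083. ELF3, an epithelial ETS factor, rose 2.27-fold, from 224.8 ± 31.3 to 509.4 ± 22.9 CPM (edgeR adjusted p = 2.54e-08). KLF4 and STAT3 rose 2.53-fold and 1.51-fold (edgeR adjusted p = 2.43e-05 and 8.71e-05). NFKB1 fell from 49.98 ± 5.06 to 23.4 ± 3.12 CPM (2.13-fold lower, edgeR adjusted p = 1.19e-06). SP1, whose product binds the GC box, was at 18.4, 20.2 and 23.2 CPM in control and 11.2, 12.1 and 14.3 CPM with propionate (1.64-fold lower, edgeR adjusted p = 0.000864), and the intestinal factor gene CDX2 was 1.31-fold lower (edgeR adjusted p = 0.00374). Transcript levels do not give the activity of these factors.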

How the data were processed

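The tables the authors deposited hold raw read counts per gene symbol, 1 table per library, and the submitters' processing notes name Bowtie2, edgeR, hg19 and GRCh37. No source used here gives the counter, its strand setting or the annotation. Per the labels' protocols, 500 ng of total RNA went into a Lexogen QuantSeq kit, a name used for kits that read transcript 3′ ends, so CPM are not scaled by length and members are not ranked by level. Symbols on several of the 25737 lines (286 symbols, no member) were summed.

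Differences between the groups were fitted in edgeR 4.0.16 under R 4.3.3, with filterByExpr, TMM factors, quasi-likelihood F test, no covariate. Levels are CPM with TMM factors. Intervals are 95%, and SE is the log2 fold change over the root of F. The test was checked on simulated counts of independent libraries, which lacked the shared deviation of same-numbered libraries given below. Libraries of a group differed by more than sampling noise (chi-square per degree of freedom 6.01 to 8.85). Same-numbered libraries deviated together (correlations 0.238, 0.393 and 0.440 over 9284 genes above 10 CPM), so numbers were taken as pairs from the data. No label states a shared batch. The members, gene lists and naming rule were chosen with earlier results of these data known. All members are given. Lists are given by counts, naming every called gene of lists with 5 or fewer, otherwise up to 3 per direction by smallest p. The values of 2 called list genes are not reported here. Neighbours come from the order of genes in RefSeq (GRCh38.p14), limited to genes with a row in the count tables, at any distance. Some values outside this rule (ADAM10, ADAM17, CTNNB1, LGALS3, MUC5AC, MUC5B, CD164, PODXL, SPN) were chosen after they were seen. Alternatives were other scaling factors and filters, DESeq2 1.42.0, limma-voom (limma 3.58.1), the block, GC correction (splines with 4 degrees of freedom, 93.4% of tested genes) and leaving out each library.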

Additional observations from a re-analysis of the deposited data

How the results depend on the processing

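MUC1 kept its call in all 17 alternatives, with log2 fold changes from 1.53 to 2.26 and adjusted p from 0.000107 to 0.0126, and the counts of 1 member higher and 0 lower did not change in any. MUC4, MUC12, MUC13 and MUC17 stayed above 0 and did not pass in any of the 17. With the replicate block the log2 fold changes were 1.95 for MUC1 and 0.11 for MUC3A (adjusted p = 0.000958 and 0.108), the genes called numbered 2980 higher and 3074 lower, and ACHE was called higher (adjusted p = 0.0484), the single change of call among the tested genes whose values are given. With the block and transcript GC correction, MUC20 (-0.19) and MUC2 (-0.015) were below 0, and MUC6 and TNK2 no longer passed (0.0023 and 0.099). With GC of the last 500 bases instead, a version added after seeing the data, MUC3A (-0.13), MUC20 (-0.20), MUC6 (-0.047) and MUC2 (-0.034) were below 0, and the number of genes called lower was 3476 against 2316. MUC3A was below 0 without control library 3 (-0.070) and without propionate library 1 (-0.11), and ran from -0.11 to 0.32 over the libraries left out. MUC20 was below 0 without control library 3 (-0.0079) and without propionate library 2 (-0.019), and reached 0.15 without propionate library 1. The cause of these changes of sign was not tested. Leaving out a library gave 1984 to 2086 genes higher and 1865 to 1999 lower, in fits with fewer samples. The fold of HEG1 was 6.98 without control library 3, which had none of its reads, against 10.5. The intervals of MUC1 and MUC4, with 25 and 35 control reads, were the widest of the 7, and how far depth or spread between libraries sets them was not tested.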

Other observations

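The spread of MUC3A between libraries was far wider than that of most genes and followed the library number. Its coefficient of variation was 27.0% in control and 27.1% with propionate. Among 4082 tested genes of at least 50 CPM on average, a minimum chosen after the values were seen, 17 reached that spread in control and 11 in propionate, with medians over genes of 6.74% and 6.66%. Library 1 over library 3 was 1.73 in control and 1.73 with propionate, whereas the fold between the groups was 1.08. MUC13 had coefficients of variation of 7.89% and 7.92%.

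Some genes near the members or in their pathway were too rare to be tested, and those below were picked after their values were seen. APH1B, a gamma-secretase subunit gene, had 0, 2 and 2 control reads against 15, 12 and 9 under propionate (ratio of summed reads 8.60, exact binomial 95% interval 3.08 to 33.3). DDIT4L, the nearest gene with a row on one side of EMCN but 204872 bases away, had 0 reads in every control and 6, 5 and 5 with propionate. Among mucin-like surface glycoproteins, MCAM had 0, 0 and 1 control reads against 11, 0 and 4 under propionate, and SELPLG had 0, 2 and 3 control reads against 1, 5 and 11 under propionate. In the other direction, the O-glycan enzyme gene GALNT14 had 3, 1 and 0 control reads and the endothelial gene PECAM1 had 2, 1 and 2, and both had 0 reads in every propionate library. Intervals cover counting error only.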
